A study of Mus musculus with 4 samples.

Results

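The CDK inhibitors are small proteins that hold back the cyclin-dependent kinases, the enzymes that drive a cell through its division cycle. They form 2 families. The Cip/Kip family has 3 genes, Cdkn1a (p21), Cdkn1b (p27) and Cdkn1c (p57), and the Ink4 family has 4, Cdkn2a (p16, which also encodes Arf in another reading frame), Cdkn2b (p15), Cdkn2c (p18) and Cdkn2d (p19). Members were every probe set on the array whose platform annotation gave one of these 7 symbols and no other. This gave 7 of the 8251 genes with a probe set of their own, and 9 probe sets of 12422, of which 5 belonged to Cip/Kip and 4 to Ink4.

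The series compared total liver RNA of 2 groups of male B6SJL hybrid mice, which were 50 to 66 days old, with Affymetrix MG_U74Av2 arrays. All mice in both groups ate a diet with 65% protein and 10% carbohydrate, freely and for 4 weeks from weaning. The PEPCK-TAg group carried a transgene for the SV40 large T and small t proteins, and the wild-type group carried none. The name of the transgene refers to the promoter of phosphoenolpyruvate carboxykinase, which is active mainly in hepatocytes and kidney tubules and is induced by a diet rich in protein. Each group had 2 arrays, numbered 1 and 2. Whether 2 arrays of 1 group stand for different mice is not in the labels. The p-values therefore reflect only how far such arrays lay apart, a spread that may be technical. The transgene's own RNA was not analysed here.

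Cip/Kip proteins bind complexes of a cyclin with its kinase, chiefly those of cyclins D, E and A. Ink4 proteins bind the kinases CDK4 and CDK6 themselves and keep cyclin D off them. Both acts leave the retinoblastoma pocket proteins unphosphorylated and bound to E2F transcription factors. SV40 large T binds the pocket proteins and p53, the factor best known for inducing Cdkn1a. In healthy adult liver most hepatocytes rest outside the cycle, and Cdkn1a is a known brake on their return to it after injury.

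The promoter windows of the 3 genes with a rise and an entry in the sequence table are shown first, since the rises described further on come from these genes. RefSeq (build GRCm38.p6) gave 9 windows for 6 of the 7 genes, each of 300 bases, from 250 before a transcript's start to 50 after it. Cdkn1c had no entry. Capitals mark either an E2F motif, searched as TTCCCGC or with GG, CG or GC in place of its first CC, or the p53 half-site motif, both on both strands. No 2 marked motifs overlap in these windows. Sequences run 5′ to 3′ on the gene's strand. A marked motif is a match of letters, not a site of binding, and a window without one says only that these letters are absent from it.
Cdkn1a, upstream start, chr17:29090729-29091028, plus strand: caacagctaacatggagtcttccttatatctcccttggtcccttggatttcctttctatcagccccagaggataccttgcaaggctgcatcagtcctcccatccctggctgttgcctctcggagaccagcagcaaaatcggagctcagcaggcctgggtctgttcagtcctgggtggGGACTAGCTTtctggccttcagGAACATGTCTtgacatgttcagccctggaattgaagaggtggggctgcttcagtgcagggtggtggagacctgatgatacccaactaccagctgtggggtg
Cdkn1a, downstream start, chr17:29093519-29093818, plus strand: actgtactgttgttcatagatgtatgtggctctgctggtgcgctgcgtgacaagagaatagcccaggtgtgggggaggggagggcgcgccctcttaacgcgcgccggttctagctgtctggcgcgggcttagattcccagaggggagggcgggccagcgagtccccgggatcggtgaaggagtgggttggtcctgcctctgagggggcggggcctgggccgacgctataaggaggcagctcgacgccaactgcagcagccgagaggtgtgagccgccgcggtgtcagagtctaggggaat
Cdkn2c, upstream start, chr4:109666707-109667006, minus strand: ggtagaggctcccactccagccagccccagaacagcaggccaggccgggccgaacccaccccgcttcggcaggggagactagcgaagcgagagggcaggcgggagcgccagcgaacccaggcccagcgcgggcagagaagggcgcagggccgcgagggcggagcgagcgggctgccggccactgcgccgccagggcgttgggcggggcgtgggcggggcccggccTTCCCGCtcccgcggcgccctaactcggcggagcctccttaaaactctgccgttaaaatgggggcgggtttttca
Cdkn2c, downstream start, chr4:109665323-109665622, minus strand: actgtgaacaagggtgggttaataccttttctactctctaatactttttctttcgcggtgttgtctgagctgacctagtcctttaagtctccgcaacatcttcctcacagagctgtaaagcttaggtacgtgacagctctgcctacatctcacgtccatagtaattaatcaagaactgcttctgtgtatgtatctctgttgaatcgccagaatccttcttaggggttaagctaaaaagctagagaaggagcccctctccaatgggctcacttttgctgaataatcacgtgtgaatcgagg
Cdkn2d, chr9:21291160-21291459, minus strand: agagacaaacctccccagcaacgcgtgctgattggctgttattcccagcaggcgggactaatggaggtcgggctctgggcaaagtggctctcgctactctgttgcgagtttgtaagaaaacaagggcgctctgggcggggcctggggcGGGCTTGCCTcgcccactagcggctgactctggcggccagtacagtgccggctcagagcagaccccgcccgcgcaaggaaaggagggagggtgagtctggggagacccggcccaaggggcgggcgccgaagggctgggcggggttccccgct

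The upstream Cdkn1a window held p53 half-sites starting at positions -73 and -51 from the transcript start, and the downstream window, 2790 bases further along, held none. Cdkn2d held 1 such half-site at position -102. Over all 32851 windows of the table, 8.4% held at least 1 half-site. The upstream Cdkn2c window held an E2F motif at position -25, and its downstream window, 1384 bases further along, held none. The only other member window with an E2F motif was that of the upstream start of Cdkn2a, at position -98. Of all windows, 9.6% held an E2F motif. A GC box (GGGCGG, either strand) stood in 7 of the 9 member windows and in 35.7% of all windows. The array does not separate the transcripts that begin at these different starts.

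The deposited values are MAS5 signals, in which the signals of different probe sets cannot be ranked against each other, so each probe set is compared only with itself across arrays. Median signals over the array were 68.5 and 66.6 in wild-type against 77 and 84.7 in PEPCK-TAg liver, so both PEPCK-TAg medians were the higher. Having only 4 arrays limits precision throughout. Over the 7877 probe sets tested, Pearson's r was 0.943 within the wild-type pair, 0.953 within the PEPCK-TAg pair and 0.812 to 0.844 across groups. Probe sets are not independent replicates. The hepatocyte markers bore out the labelled tissue. Albumin (Alb) read 15364 and 17286 in wild-type against 9379 and 13117 in PEPCK-TAg liver. The biliary markers Krt19 and Epcam lay below 14 on every array. Krt7, also biliary, read 30 and 8.2 in wild-type against 13.7 and 11.5 in PEPCK-TAg liver.

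A comparison of PEPCK-TAg with wild-type liver asks which inhibitors differed in level between a liver with the viral transgene and one without it. Probes of 4 genes, Cdkn1c and Cdkn1a of Cip/Kip and Cdkn2c and Cdkn2d of Ink4, rose in PEPCK-TAg liver, by 5.0-fold to 9.65-fold. Cdkn1b, Cdkn2a and Cdkn2b were too dim on all 4 arrays to be tested. A probe set entered the test if 2 or more arrays lay above a signal of 41.3, the 40th percentile of all signals. Of the 9 probe sets, 5 did so, 3 of Cip/Kip and 2 of Ink4, and 4 of these 5 passed limma's moderated test with a Benjamini-Hochberg adjusted p under 0.05. Over all probe sets tested, 9.10% were called higher and 3.40% lower in PEPCK-TAg liver. No tested inhibitor was called lower, and at an unadjusted p under 0.05 in limma's test 4 of the 5 were higher and 0 lower, beside 19.4% higher and 11.0% lower over all probe sets tested. Cdkn1c entered the test through its PEPCK-TAg arrays alone, so any difference it showed had to be a rise. The same held for 399 of all probe sets tested and for 237 of the 717 called higher, and such genes are pointed out in the lists that follow.

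**Figure D1:**
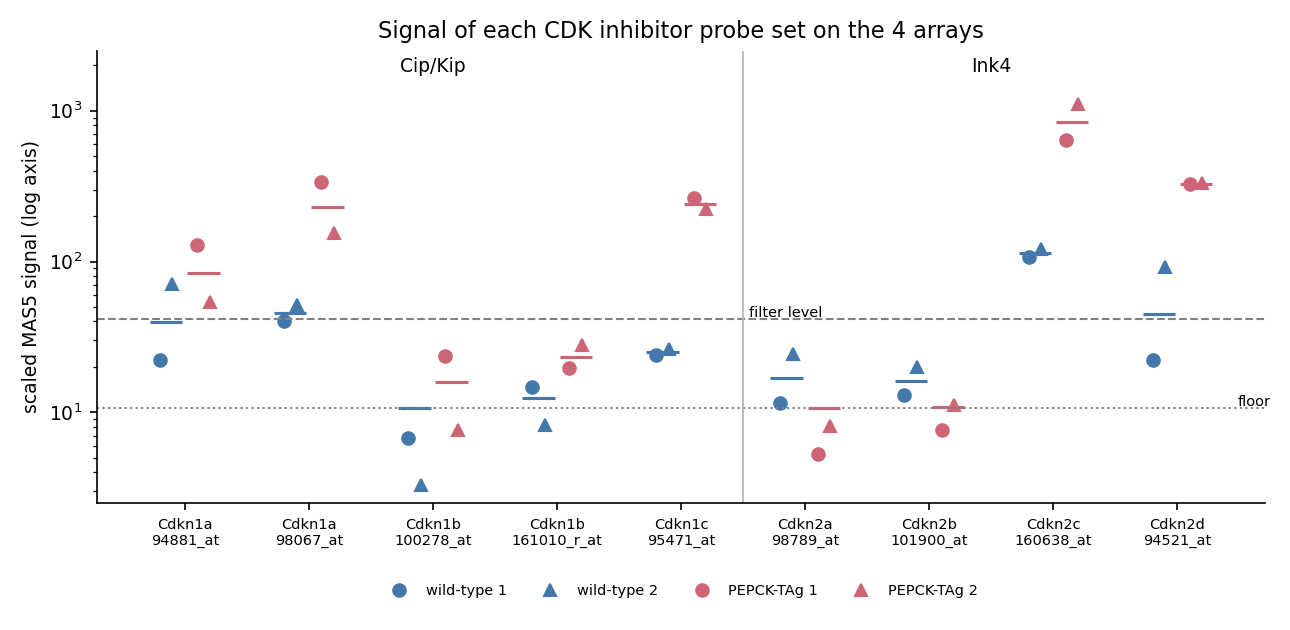
Scaled MAS5 signal (log axis) of each of the 9 CDK inhibitor probe sets on the 2 wild-type and the 2 PEPCK-TAg arrays, with 1 point an array and a bar at each group's mean of floored log2 values. The PEPCK-TAg points of Cdkn1c, Cdkn2c, Cdkn2d and 1 of the Cdkn1a probe sets stand clear above the wild-type points, and all points of Cdkn1b, Cdkn2a and Cdkn2b lie below the filter level of 41.3 (dashed), many near the floor of 10.6 (dotted).

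In the Cip/Kip family, the widest difference was that of Cdkn1c, which encodes p57, an imprinted inhibitor active chiefly in the embryo and placenta. Its probe set (95471_at) read 23.8 on wild-type 1, 26.2 on wild-type 2, 262.2 on PEPCK-TAg 1 and 221.8 on PEPCK-TAg 2, the order used for every gene here. Both wild-type arrays were low and close together, both PEPCK-TAg arrays were high, and the groups did not overlap, as held in this direction for 33.3% of the probe sets tested. The rise was 9.65-fold, a log2 difference of 3.27 ± 0.32 (limma's moderated SE, n = 2 arrays per group, as for all differences here; 95% interval 2.51 to 4.03, adjusted p = 0.0022). The wild-type signals were below the filter level, and raising the floor to that level gave 2.55.

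Cdkn1a encodes p21, which p53 induces after DNA damage and which binds PCNA as well as the kinases. It had 2 probe sets, and they differed. The first (98067_at) read 40.6 and 51.3 in wild-type liver against 337.5 and 154.7 in PEPCK-TAg liver. Both PEPCK-TAg arrays were above both wild-type arrays, and PEPCK-TAg 1 was the higher of the pair. This was a 5.0-fold rise (log2 difference 2.32 ± 0.43 SE, 95% interval 1.29 to 3.36, adjusted p = 0.0186).

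The further Cdkn1a probe set (94881_at) read 22.3 and 70.6 in wild-type liver against 129.5 and 53.8 in PEPCK-TAg liver. Here the groups overlapped, since wild-type 2 read above PEPCK-TAg 2. Its log2 difference was 1.07 ± 0.67 SE (95% interval -0.52 to 2.67, adjusted p = 0.324). That interval includes both no difference and the value of the first probe set, so the difference between the pair cannot be read as a difference between transcripts. Without wild-type 1 the value was 0.24, and without PEPCK-TAg 1 it was 0.44.

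Cdkn1b encodes p27, an inhibitor kept mainly by protein turnover. Its first probe set (100278_at) read 6.7 and 3.3 in wild-type liver against 23.5 and 7.6 in PEPCK-TAg liver, and 3 of these 4 values were under the floor of 10.6. The second (161010_r_at, where r marks a set built with fewer of the usual design rules) read 14.8 and 8.2 in wild-type liver against 19.7 and 27.8 in PEPCK-TAg liver. All 8 values lay below the filter level, and no fold change is given for them. With no filter, their log2 differences were 0.57 and 0.90, with adjusted p-values of 0.597 and 0.27 in limma's test.

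In the Ink4 family, Cdkn2c and Cdkn2d rose. Cdkn2c encodes p18, an inhibitor of CDK4 and CDK6 found in many dividing and differentiating cells. Its probe set (160638_at) read 107.8 and 120.7 in wild-type liver against 641.2 and 1100.1 in PEPCK-TAg liver. It was the only member above the filter level on all 4 arrays, and its wild-type arrays lay well below the lower PEPCK-TAg array. The rise was 7.36-fold (log2 difference 2.88 ± 0.32 SE, 95% interval 2.11 to 3.65, adjusted p = 0.00335).

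Cdkn2d encodes p19, the Ink4 protein whose level is known to peak as cells replicate their DNA. Its probe set (94521_at) read 22.3 and 91.4 in wild-type liver against 325.4 and 331.1 in PEPCK-TAg liver. The PEPCK-TAg arrays were nearly equal, the wild-type arrays were far apart, and the groups did not overlap. The rise was 7.27-fold (log2 difference 2.86 ± 0.62 SE, 95% interval 1.37 to 4.35, adjusted p = 0.0317). Its size turned on which wild-type array was used, with 1.84 without wild-type 1 and 3.88 without wild-type 2. Under quantile normalization the value was 2.65 and the adjusted p 0.0552, so the call was lost there.

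Cdkn2a and Cdkn2b are neighbours on chromosome 4 and are known to be silent in most young tissues. In many tumours without a working retinoblastoma protein the p16 product of Cdkn2a is abundant. The Cdkn2a probe set (98789_at) read 11.5 and 24.4 in wild-type liver against 5.3 and 8.1 in PEPCK-TAg liver, and both PEPCK-TAg values were under the floor. The annotation does not say whether it reads the p16 transcript, the Arf transcript or both. The Cdkn2b probe set (101900_at) read 13.1 and 20 in wild-type liver against 7.6 and 11.1 in PEPCK-TAg liver. In both genes the PEPCK-TAg arrays read below the wild-type arrays, but all of these signals were below the filter level, where order has little meaning. With no filter the log2 differences were -0.66 for Cdkn2a and -0.58 for Cdkn2b (limma adjusted p = 0.566 and 0.379). A rise of these genes was thus not detected on these arrays, which is not the same as an absence of their RNA.

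**Figure D2:**
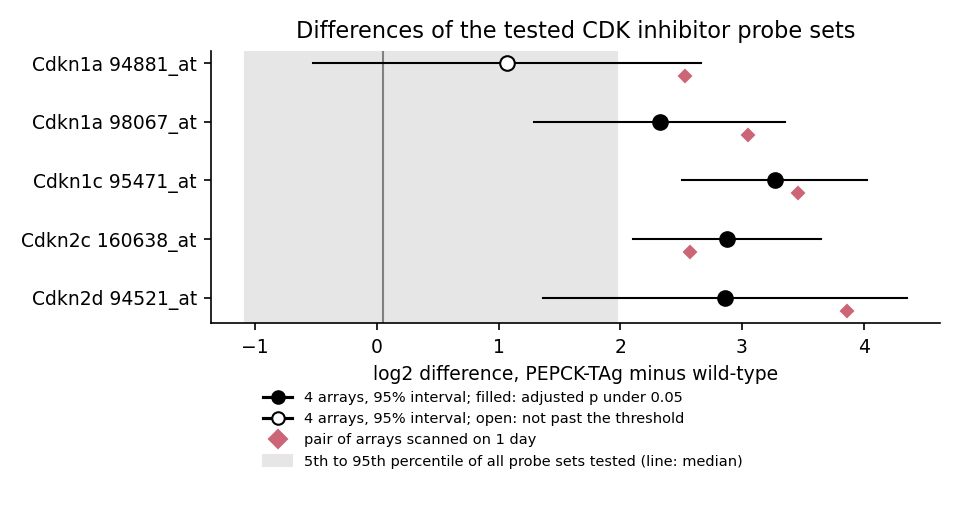
Log2 difference, PEPCK-TAg minus wild-type, of the 5 CDK inhibitor probe sets tested, with the 95% interval of limma's moderated fit (circles, filled where the adjusted p was under 0.05) and the value of the pair of arrays scanned on 1 day (diamonds). The grey band spans the 5th to the 95th percentile of all probe sets tested (-1.09 to 1.98), with their median of 0.051 as a line, and the 4 filled circles lie to the right of it.

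The families overlapped in the size of their differences. The median log2 difference was 2.32 over the 3 Cip/Kip probe sets tested and 2.87 over the 2 of Ink4, beside 0.051 over all probe sets tested. These medians hold only members bright enough to be tested, and the difference between the families was not tested. With no filter, the medians fell to 1.07 over all 5 Cip/Kip probe sets and 1.14 over all 4 of Ink4. The median of all 12422 probe sets was then 0. The 95% intervals of Cdkn1c, Cdkn1a (98067_at), Cdkn2c and Cdkn2d all overlapped, so the order of their differences is not established. In all, 2 of the 3 Cip/Kip genes and 2 of the 4 Ink4 genes gave a call, beside 9.10% of all probe sets tested called higher. The rest were too dim to be tested, so whether they differed from the called genes was not tested.

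Wild-type 1 and PEPCK-TAg 1 were scanned on 1 day, and this pair gave log2 differences of 3.46 for Cdkn1c, 3.05 and 2.54 for the Cdkn1a probe sets, 2.57 for Cdkn2c and 3.87 for Cdkn2d, with no test. All 5 were in the same direction as with 4 arrays. Group cannot be told apart from chip lot, because both PEPCK-TAg arrays came from 1 lot and the wild-type arrays from 2 others. Leaving out PEPCK-TAg 1 or PEPCK-TAg 2 left none of the 7877 probe sets past the adjusted threshold, so the 4 calls were lost too, with adjusted p-values from 0.0937 to 0.335. At an unadjusted p under 0.05, 1348 and 1433 probe sets passed in those fits, 3 of the 5 inhibitor probe sets among them in each. The sizes moved less. Without PEPCK-TAg 1 the log2 differences were 3.15 for Cdkn1c, 1.76 for Cdkn1a (98067_at), 3.27 for Cdkn2c and 2.87 for Cdkn2d, and without PEPCK-TAg 2 they were 3.39, 2.89, 2.49 and 2.85. Leaving out either wild-type array kept all 4 calls.

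**Figure D3:**
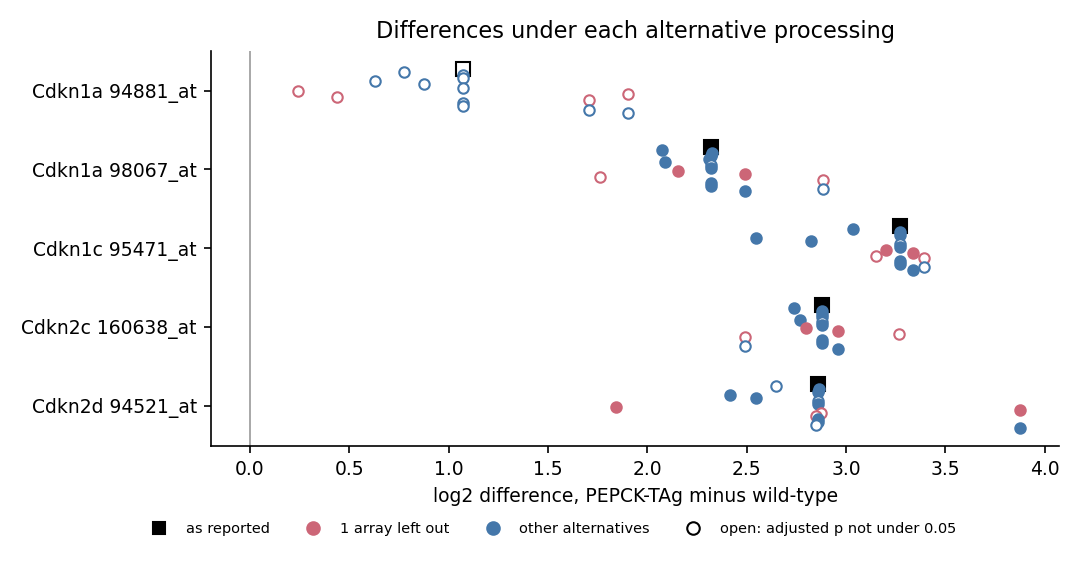
Log2 difference, PEPCK-TAg minus wild-type, of the 5 tested CDK inhibitor probe sets as reported (squares), with 1 array left out (red) and under the other alternatives (blue). Open points had an adjusted p of 0.05 or more, and all points lie above 0, from 0.24 for 94881_at of Cdkn1a to 3.88 for Cdkn2d.

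Among the kinases and cyclins that the inhibitors bind, some passed the threshold and others did not. Of 12 partner genes tested (1 probe set a gene, the brightest, here and in the lists that follow), 5 rose and none fell, with a median log2 difference of 0.88. The shares called over all probe sets tested were 9.10% higher and 3.40% lower. At an unadjusted p under 0.05 in limma's test, 7 were higher and 0 lower (19.4% and 11.0% over all probe sets tested). The 5 were partners of S phase and mitosis. Cdk1, the mitotic kinase, rose from 11.7 and 13.5 to 863 and 645.2 (log2 difference 5.89). It was tested through its PEPCK-TAg arrays alone, so only a rise could be called, and with the floor at the filter level its value was 4.18. Ccnb2, a mitotic cyclin, rose by 3.07. Pcna, the replication clamp that p21 binds, rose from 460.5 and 383.2 to 2913 and 2377 (2.65). Ccna2, the cyclin of S phase and mitosis, rose by 2.29, and Cdk2, the partner of cyclins E and A, by 1.63. Ccne1, a cyclin E, read 154.3 and 146.7 in wild-type liver against 339.1 and 270.4 in PEPCK-TAg liver, with no overlap. It fell just short of the threshold (log2 difference 1.01 ± 0.27 SE, limma adjusted p = 0.0552).

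Cdk4, the tested kinase that Ink4 proteins bind, did not pass, and neither did the tested D-type cyclins. Whether they differed from the other partners was not tested. Cdk4 read 457.8 and 612.4 in wild-type liver against 877.6 and 905.8 in PEPCK-TAg liver, with no overlap, but did not pass (log2 difference 0.75 ± 0.25 SE, adjusted p = 0.101). The D-type cyclin Ccnd3 gave 0.38 ± 0.38 SE (adjusted p = 0.55), a value that was -0.14 without wild-type 1. Ccnd1, another D-type cyclin, read 163.5 and 189.0 in wild-type liver against 100.5 and 133.2 in PEPCK-TAg liver, with no overlap (-0.60 ± 0.30 SE, adjusted p = 0.222), and its dimmer probe set gave -0.53 (adjusted p = 0.387). Among the pocket proteins, which these kinases phosphorylate, Rbl1 (p107) rose by 3.31 and Rb1 by 1.58, while Rbl2 (p130) gave -0.57 (adjusted p = 0.301). Rb1 had no wild-type array above the filter level, so a rise was the only call open to it, and with scanner type as a block its adjusted p was 0.0628. That made 2 rises among 3 genes, with a median of 1.58, beside 9.10% called higher over all probe sets tested.

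Genes that govern the turnover of the inhibitor proteins gave 4 rises and no fall among 12 tested, with a median of 0.53. Beside this, 9.10% of all probe sets tested were called higher and 3.40% lower. At an unadjusted p under 0.05 in limma's test, 5 of the 12 were higher and 2 lower, against 19.4% and 11.0% of all probe sets tested. Dtl, the adaptor that brings p21 to a ubiquitin ligase on PCNA, rose at least 29.8-fold, from below the floor on both wild-type arrays to 324.5 and 306.9, and was tested through those PEPCK-TAg arrays alone. Cks1b, the cofactor needed to mark p27 for destruction, rose from 151.6 and 83.4 to 385.9 and 336.6 (log2 difference 1.68), and its relative Cks2 rose by 1.99. Ubac1, a subunit of another ligase that acts on p27, rose by 1.84. Core parts of the ligases did not pass. Ddb1 gave -0.28 (adjusted p = 0.422), and 0.006 under quantile normalization, and Skp1 gave -0.55 (adjusted p = 0.164).

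Of 31 genes tested that regulate transcription of the inhibitor genes, 6 rose and none fell, with a median of 0.58. Called shares of all probe sets tested were 9.10% higher and 3.40% lower. At an unadjusted p under 0.05 in limma's test, 13 of the 31 were higher and 1 lower, against 19.4% and 11.0% of all probe sets tested. Ezh2 and Suz12, subunits of the Polycomb complex known to silence Cdkn2a, rose by 2.88 and 1.45. Under quantile normalization Suz12 gave 1.20 and did not pass (adjusted p = 0.0523). Ezh2 read 79.9 and 85.8 in wild-type liver against 697.5 and 529.5 in PEPCK-TAg liver. Klf6, a zinc finger factor known to activate Cdkn1a, rose from 66.0 and 48.6 to 446.3 and 297.5 (2.69). Ets2, known to activate Cdkn2a, rose by 1.59, and Sp3, a factor that binds GC boxes, by 1.10. Myc, known as a repressor of Cdkn1a and Cdkn2b, rose at least 5.99-fold, from below the floor to 74.9 and 53.7. With the floor at the filter level its value was 0.62 and the call was lost (adjusted p = 0.14). E2f1 was not among the 6, since the probe set counted for it gave 1.17 (adjusted p = 0.0631), whereas its other probe set rose at least 8.39-fold (log2 difference 3.07, and 1.11 with the floor at the filter level). Myc and that E2f1 probe set were tested through their PEPCK-TAg arrays alone, so only a rise could be called. Among those not called, Cebpa, the hepatocyte factor that supports p21, gave -0.88 (adjusted p = 0.0932), and Id2, an inhibitor of differentiation factors, gave -0.078 (adjusted p = 0.864).

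**Figure D4:**
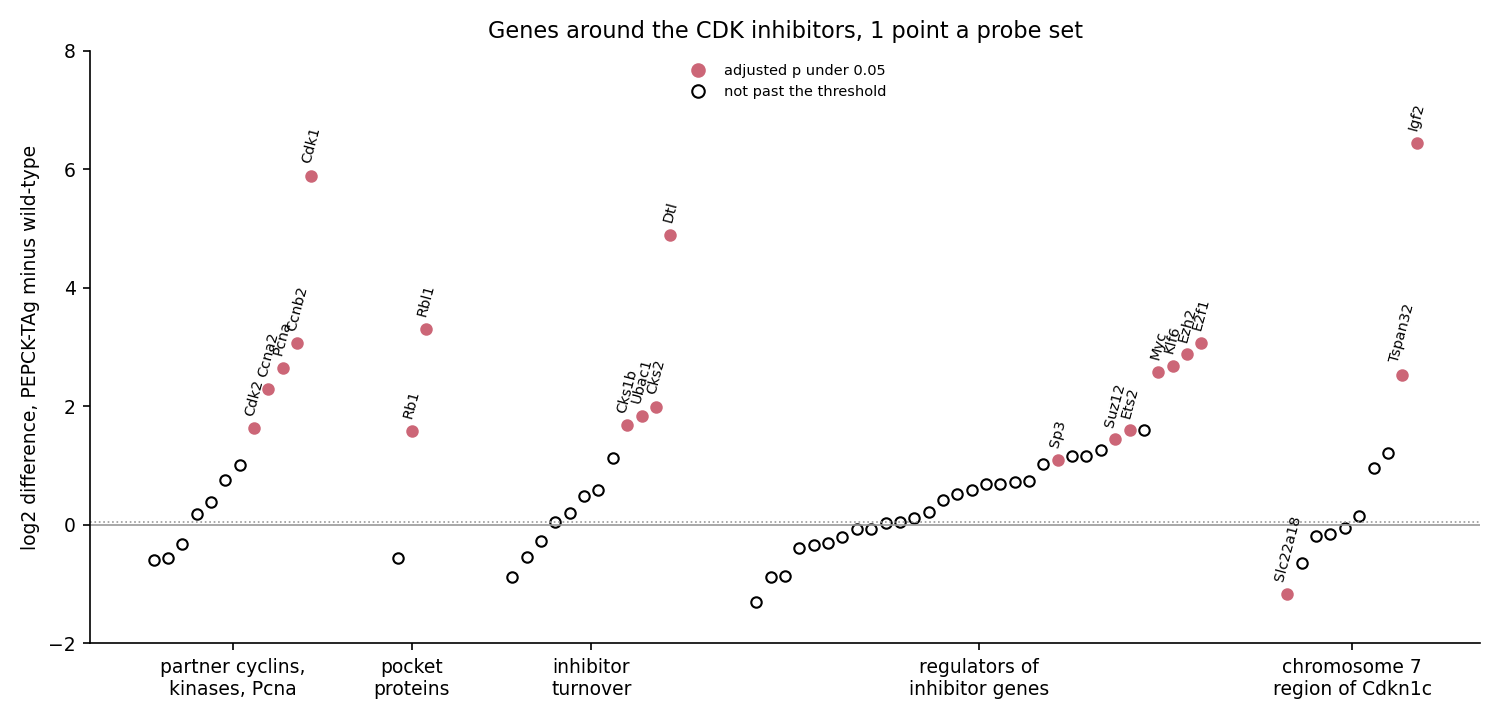
Log2 difference, PEPCK-TAg minus wild-type, of genes around the CDK inhibitors in 5 lists, 1 point a probe set, ordered by size within a list. Shown are the brightest tested probe set of each gene and any other named in the text that passed the threshold. Red points passed an adjusted p of 0.05 and carry their symbol, and Slc22a18, at -1.17, is the only red point below 0.

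Cdkn1c lies in an imprinted region of chromosome 7, between Kcnq1 and Slc22a18, and neither neighbour was called higher. Slc22a18, a transporter gene next to Cdkn1c, fell 2.24-fold, from 1024 and 1132 to 442.9 and 519.5 (log2 difference -1.17 ± 0.23 SE, adjusted p = 0.0237). The groups did not overlap, as held in this direction for 26.5% of the probe sets tested. Kcnq1, on the other side, read 187.1 and 172.6 in wild-type liver against 122.2 and 107.8 in PEPCK-TAg liver (-0.65, adjusted p = 0.167). Phlda2, beyond Slc22a18, lay near or below the filter level on all arrays. Of 10 genes tested in the wider region, 2 rose and 1 fell (9.10% and 3.40% over all probe sets tested), with a median of 0.047. The rises were those of Igf2, a fetal growth factor, by 6.45 in 1 probe set, and Tspan32, a tetraspanin of blood cells, by 2.53. Tspan32 was tested through its PEPCK-TAg arrays alone, so only a rise could be called. The value of that Igf2 probe set was 5.60 without wild-type 1 and 7.30 without wild-type 2. The other Igf2 probe set read 2.1 and 4.6 in wild-type liver against 3.2 and 2.4 in PEPCK-TAg liver. All 4 of its values were under the floor, and it was not tested. Tssc4 gave 0.95 (adjusted p = 0.102; 0.0269 without wild-type 2) and Cd81 gave -0.048 (adjusted p = 0.928), a sign that turned when an array was left out.

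The genes next to the other risen inhibitors, looked up after the values had been seen, were mixed. Srsf3, a splicing factor gene beside Cdkn1a, rose from 217.9 and 147.1 to 1100 and 974.6 in 1 probe set, whose suffix marks probes shared with related sequences (log2 difference 2.53, adjusted p = 0.00325), and its dimmer probe set gave 0.39 (adjusted p = 0.627). On 1 side of Cdkn2c, 3 probe sets of Faf1 gave -0.096 to -0.87, none of them called. On the other side Rnf11, which 4930522H14Rik separates from Cdkn2c, gave -0.56 (adjusted p = 0.148). No immediate neighbour of Cdkn2d had a probe set with a symbol of its own.

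The probe sets most like each risen inhibitor were found by the distance between centred log2 values over the 4 arrays, as a description only. Nearest to Cdkn1c were Hells, a chromatin helicase (distance 0.11), Aspm, a spindle pole protein (0.14), and Kitl, the ligand of the receptor Kit (0.15). Cdkn1a was closest to Pola1, the catalytic subunit of DNA polymerase alpha (0.20), the lymphotoxin gene Ltb (0.29) and Cd83 (0.39). For Cdkn2c the closest were the serotonin transporter Slc6a4 (0.17), the macrophage protease Mmp12 (0.19) and the platelet glycoprotein Gp1bb (0.20), all of them under the floor on both wild-type arrays. Cdkn2d, with its spread wild-type values, had no equally close match, and Sirpa, Slc7a7 and Morc4 stood at 0.57. Hells, Aspm and Cd83 were also under the floor in wild-type liver, where the floor itself shapes the distance.

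Many markers of granulocytes and erythroid cells were also higher in PEPCK-TAg liver. Over all probe sets tested, 9.10% were called higher and 3.40% lower. Of 9 granulocyte markers tested, 8 rose, with a median of 4.51, and their summed signal went from 347 and 394 to 7388 and 11364. Elane did not pass (log2 difference 0.60, adjusted p = 0.425), and the dimmer probe set of Lcn2 gave -0.401 (adjusted p = 0.45). For 5 of these 8 granulocyte markers, and for 2 of the 8 erythroid markers called, no wild-type array lay above the filter level. S100a9 and Mpo were under the floor on both wild-type arrays. Of 10 erythroid markers, 8 rose, with a median of 2.47, and their sum went from 3998 and 4359 to 11123 and 16029. Alas2 (-0.565, adjusted p = 0.323) and Tfrc (0.042, adjusted p = 0.955) did not pass. Of 7 macrophage markers, 3 rose (median 0.82), and their sum went from 1648 and 1612 to 3812 and 3941. Of 6 hepatocyte markers, 2 fell and none rose (median -0.61), and their sum went from 61253 and 66065 to 32568 and 42232. Each sum is set mainly by its brightest probe sets and may include genes too dim to be tested, so it does not measure cell number. The part of these cells in the rises of Cdkn1a, Cdkn1c, Cdkn2c and Cdkn2d was not tested. In whole liver RNA, a change in the number of cells of a type and a change in RNA per cell cannot be told apart.

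The other marker lists, lymphocytes among them, gave few calls, beside 9.10% called higher and 3.40% lower over all probe sets tested. None of 5 endothelial markers passed limma's adjusted threshold (median 0.37, 2 higher at an unadjusted p under 0.05), and 1 of 3 stellate cell markers rose, Col3a1, by 1.22. Of 6 lymphocyte markers with a probe set, 2 were bright enough to be tested. Ltb, tested through its PEPCK-TAg arrays alone, rose by 2.13, and Cd79a gave -0.56 (adjusted p = 0.364). None of the 3 biliary markers with a probe set was bright enough to be tested.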

How the data were processed

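The values deposited by the authors are intensity values on a linear scale, 1 for each probe set on each array, made with MAS5 per the submitters' processing notes (version not stated). Their mean after trimming 2% at each end was 250.1 to 250.2, so the authors had scaled the arrays. Chip lot, fluidics station, scanner and scan day were given per the file headers of the array records.

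Here 66 controls were removed, arrays were scaled linearly to a common trimmed mean, signals were raised to a floor of 10.6 (20th percentile) and log2 was taken. The 7877 of 12422 probe sets with at least 2 arrays above 41.3 entered limma 3.58.1 in R 4.3.3 (intensity trend, no block, two-sided, Benjamini-Hochberg over all of them), with all 4 arrays. Fold changes are on the floored log2 scale, and a fold is given as "at least" if the lower group had a signal under the floor. With 2 arrays a group, exact permutation cannot go below p = 0.333 and was not used. The platform annotation gave 1 symbol for 10833 probe sets, several for 396 and none for 1193.

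Every inhibitor probe set is named. From each other list, up to 6 called genes by smallest p and up to 2 uncalled genes by signal are named, as are the 3 nearest profiles per inhibitor. Ccnd1, Ccne1, Sp3, Kcnq1, Phlda2, further probe sets, flanking genes and markers were named after their values were seen. The members and lists were chosen with earlier results of these data known.

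Alternatives were quantile normalization, no scaling, other floors, a pseudocount, other filters, each array left out, the replicate number, station or scanner as a block, no trend and an adjusted p of 0.1.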

Additional observations from a re-analysis of the deposited data

How the results depend on the processing

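Every tested inhibitor probe set kept its sign under every alternative run. The alternatives that ended inhibitor calls were the following. With no filter, 165 probe sets were called in place of 985, and 0 of Cip/Kip and 0 of Ink4, where limma then adjusted over 12422 probe sets and 4 inhibitor probe sets passed an unadjusted p of 0.05. With the fluidics station as a block, 0 probe sets were called, 0 of Cip/Kip and 0 of Ink4 (1432 and 3 inhibitor probe sets at an unadjusted p of 0.05), which leaves PEPCK-TAg 1 alone against the wild-type arrays. Under quantile normalization, 1 Ink4 probe set was called in place of 2, and the median of all probe sets tested moved from 0.051 to -0.088. It called 567 probe sets higher in place of 717, and 279 lower in place of 268. An adjusted p of 0.1 called 1621. The 20 named calls in the other lists kept their sign wherever tested. No filter left 5 of them, and the station block and leaving out either PEPCK-TAg array left 0. Quantile normalization ended the call of Suz12 (1.20, adjusted p = 0.0523), the floor at the 40th percentile that of Myc (0.62, adjusted p = 0.14) and scanner type as a block that of Rb1 (1.56, adjusted p = 0.0628). That floor lowered Cdk1 to 4.18, Dtl from 4.90 to 2.93, E2f1 to 1.11 and Tspan32 to 1.90. With 1 array left out, calls ran from 0 to 1449 in all, from 0 to 2 for Cip/Kip, from 0 to 2 for Ink4 and stayed at 0 for lower inhibitors. Fits with a PEPCK-TAg array left out take their spread from the wild-type pair, and the lone array is assumed to vary as they do. The same replicate number marks nothing shared in the labels. As a replicate block it gave 1873 calls, kept the 4 inhibitor calls and added Cdk4 (adjusted p = 0.0363), Cebpa (0.019) and Tssc4 (0.0313). Scanner type as a block also added Tssc4. That block sets apart wild-type 2, the only array on its scanner. It thus rests on the same arrays as the fit without wild-type 2, where Tssc4 gave 1.30, and is no separate check. Deviations of same-numbered arrays correlated at 0.253 over the probe sets tested. Signs turned in small, uncalled values. Ddb1 gave 0.006 and Id2 0.086 under quantile normalization. With 1 array left out, Id2 ran from -0.294 to 0.139, Ccnd3 from -0.142 to 0.894 and Cd81 from -0.346 to 0.249. Id2 gave 0.139 with the station as a block and Cd81 0.075 with scanner type as a block. The cause of these changes was not tested. Signals near the background limit Cdkn1b, Cdkn2a and Cdkn2b.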
